A study of Mus musculus with 14 samples.

Results

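The genes described here were 9 nuclear receptor genes, Rora, Rorb, Esrrb, Esrra, Rxra, Rxrb, Rxrg, Thra and Thrb, chosen by name from the 24421 genes of an RNA-seq count table, together with the open chromatin elements within 100 kb of them. Openness was measured by ATAC-seq, in which DNA that is not packed away is cut and tagged by a transposase. Of the 53204 elements counted, all 200 bp long on mm10 (GRCm38), 199 lay in these windows. Rora had 49 of them, Thra 28, Thrb 26, Rxrb 25, Esrrb 23, Esrra 14, Rorb 12, Rxra 11 and Rxrg 11. Some windows are dense in genes, and 123 of the elements lay inside a receptor gene or had it as the gene of the nearest start site, among them 42 for Rora but 2 for Rxrb and 1 for Esrra. The study compared open chromatin and RNA of mouse rods and cones. Photoreceptors were sorted by GFP from C57BL/6 mice aged 8 weeks, and each library pooled retinas of several mice. Rods came from mice with the transgene Nrl-eGFP, in which the promoter of Nrl, the gene of the transcription factor that directs rod fate, drives GFP. Nrl-/- photoreceptors, labelled blue cones, carried the same transgene with a knockout of Nrl, and are cells of the rod lineage that become cone-like. Green cones, with Nrl intact, came from Opn1mw-GFP mice, in which GFP marks cones with the medium-wavelength opsin, and went through the sorter either a single time or again. ATAC-seq had 2 libraries in each of these 4 groups. RNA-seq had 3 libraries of rods and 3 of Nrl-/- photoreceptors, and none of green cones.

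Nuclear receptors are transcription factors that bind DNA through zinc fingers, and many change their activity when a small fat-soluble molecule such as a hormone or a retinoid occupies them. RXR proteins pair with other receptors, among them those for thyroid hormone. In the retina, thyroid hormone receptor beta and RXR gamma are factors of cones that act on the choice of opsin, ROR beta acts in the differentiation of rods, and estrogen-related receptor beta is a factor of rods.

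RNA-seq libraries held 18376770 to 26312895 counts in genes, and ATAC-seq libraries 1062403 to 5770075 counts in elements, lowest in the double-sorted green cones. The replicates of the latter had a Pearson correlation over elements of 0.734, against 0.975 for rods. The knocked-out gene checked the labels. Nrl RNA lay between 599 and 845 CPM (counts scaled to a common library size) in rods, and between 24.6 and 39.3 in Nrl-/- photoreceptors. An ATAC element in Nrl held 100.01 and 106 CPM in rods, no count in either Nrl-/- library, 17.1 and 17.1 CPM in double-sorted and 43 and 31.1 in single-sorted green cones. The sample table of the study places single-sorted green cone replicate 1 under the Nrl-/- line, whereas its label says Opn1mw-GFP, and it had counts in this element, unlike the Nrl-/- libraries. Rod markers summed to 74866 to 105651 CPM of RNA in rods and 280.2 to 378 in Nrl-/- photoreceptors, and cone markers to 529.5 to 542 and 75378 to 85326. Of 6 bipolar cell markers, 2 were higher in Nrl-/- photoreceptors and 1 in rods, and their sums were 76.9 to 100.2 and 1368 to 1562 CPM, of which Cabp5 made up 14.2 ± 3.65 and 1402 ± 100.3 (SD, n = 3). Of 5 microglia markers, 2 were higher in Nrl-/- photoreceptors, with sums of 2.71 to 4.84 and 11.6 to 18.1 CPM. Summed markers of amacrine cells were at 107 to 128 and 69.1 to 83.8 CPM, of Müller glia at 40.04 to 59.6 and 29.6 to 45.7, of endothelium at 6.90 to 11.4 and 1.78 to 3.01, of ganglion cells at 0.723 to 1.20 and 6.63 to 9.28, of horizontal cells at 0.405 to 1.28 and 1.13 to 3.55, of retinal pigment epithelium at 1.22 to 4.81 and 0.742 to 1.83, and of erythrocytes at 0.783 to 1.47 and 0.585 to 0.987. Of these, 1 horizontal cell marker (Onecut2) and 1 ganglion cell marker (Pou4f1) passed as higher in Nrl-/- photoreceptors and 1 endothelial marker (Pecam1) as higher in rods, and these genes were chosen after their values were seen. Most of the amacrine sums was Slc6a9, at 117 ± 11.5 CPM in rods and 76.1 ± 8.06 in Nrl-/- photoreceptors (SD, n = 3). Prkca made up 52.6 ± 2.34 and 8.41 ± 2.34 CPM of the bipolar sums. These genes too were chosen after their values were seen. Slc32a1, Pou4f2, Thy1, Hbb-bs and Hba-a1 were at 0 in every library. The part of such cells in the results was not tested, and in bulk samples fewer cells of a type and less RNA per cell cannot be told apart.

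Esrrb was 17.4-fold and Rorb 3.07-fold higher in rods, whereas Rxrg was 244-fold higher in Nrl-/- photoreceptors. These 3 of the 9 genes passed the edgeR test for a change beyond a log2 fold change of 1 (Benjamini-Hochberg adjusted p under 0.05). Over all 12327 genes tested, 6.85% passed as higher in rods and 13.2% as higher in Nrl-/- photoreceptors. DESeq2 gave the same counts of receptor genes, against 4.99% and 11.1% of all genes. Any change from 0 was tested as an alternative, and 3 receptor genes then passed in each direction, beside 29.5% and 31.3% of all genes. The libraries of the groups did not overlap for 7 of the 9 genes, nor did they for 67.0% of all genes tested.

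**Figure D1:**
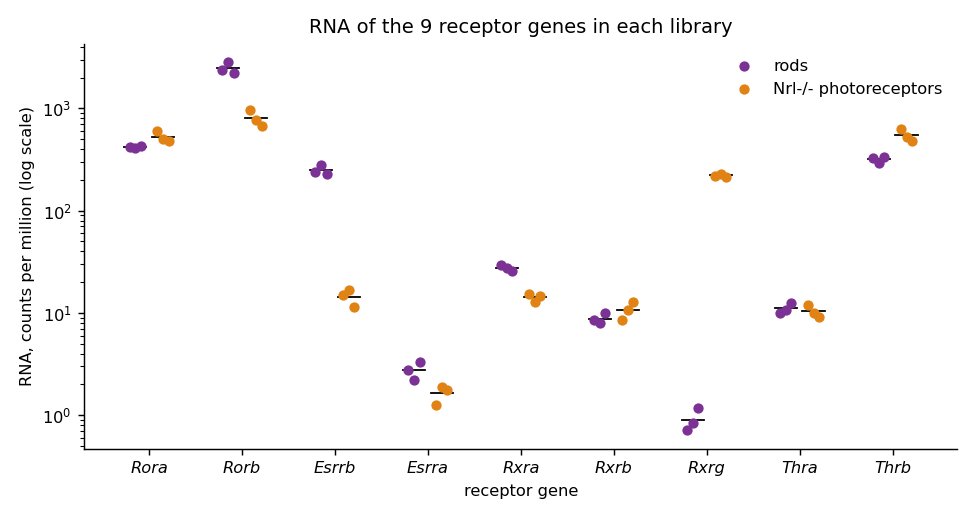
RNA of the receptor genes in CPM (log scale) in each of the 3 rod and 3 Nrl-/- libraries, with the group mean as a line. Rxrg lies between 0.709 and 1.17 in rods and between 215 and 228 in Nrl-/- photoreceptors, Esrrb has the opposite order, and the groups overlap for Rxrb and Thra.

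Levels of different genes were compared per kilobase of exon. In rods Rorb led with 261 ± 33.6 CPM per kb (SD, n = 3). Esrrb followed with 54.2 ± 6.14 and Thrb with 48.7 ± 3.31, which did not differ beyond their spread, and then Rora with 34.3 ± 0.758. Much lower were Rxra with 5.01 ± 0.336, Thra with 3.49 ± 0.422 and Rxrb with 3.17 ± 0.380, the last pair within their spread, then Esrra with 1.24 ± 0.256 and Rxrg with 0.383 ± 0.101. In Nrl-/- photoreceptors Rxrg with 93.5 ± 2.68, Rorb with 84.9 ± 15.3 and Thrb with 83.3 ± 11.1 CPM per kb were highest, and neighbours among them lay within their spread. Rora came next with 42.9 ± 4.88. Rxrb with 3.87 ± 0.779, Thra with 3.25 ± 0.474, Esrrb with 3.11 ± 0.604 and Rxra with 2.60 ± 0.234 formed a low group whose neighbours lay within their spread, and Esrra was lowest with 0.728 ± 0.145. Exons of Rora, Esrra and Thra share bases with a gene on the opposite strand (Gm15511, Trmt112 and Nr1d1). The library kit does not mark strand, so that reads of the partners cannot be told apart and these 3 levels are uncertain.

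In ATAC-seq, the 2 rod libraries were tested against 4 cone libraries, which were the Nrl-/- photoreceptors and the double-sorted green cones, at an adjusted p under 0.1. Of 198 elements tested, 13 (6.57%) passed as more open in rods and 35 (17.7%) as more open in cones. Of all 51563 elements tested, 3.96% and 18.0% passed. At Rxrg 9 of 11 elements passed, all of them more open in cones. At Esrrb 10 of 23 passed, all more open in rods. Rora had 15 of 48 elements more open in cones, with 1 in the other direction, and Rorb 4 of 12, with none. Thrb had 4 of 26 more open in cones and 2 in rods. The 3 elements more open in cones near Rxrb had H2-K1, H2-Oa and H2-DMb2 as their nearest genes, and no element passed near Esrra, Rxra or Thra. The median log2 fold change of rods over cones was -4.09 at Rxrg (-3.14 with elements that held no rod count set at their bound), -0.80 at Rora, -0.76 at Rorb, -0.091 at Rxra, 0.17 at Rxrb, 0.28 at Thrb, 0.49 at Thra, 0.70 at Esrra and 1.47 at Esrrb, beside -0.13 over all elements tested. With library sizes from the processed read totals of the study in place of TMM, this overall median moved by 0.44, and 20 elements passed as more open in rods and 26 in cones, so that rods had 43.5% of the calls in place of 27.1%. Over all elements this share moved alike, from 18.0% to 35.3% (3510 and 6420 of all 51563 elements passed). With a single rod library, assumed to vary like the cone libraries, 4 and 25 elements passed without rod replicate 1 and 3 and 25 without rod replicate 2, and the counts over all elements fell too (670 and 4526 of all 51889 elements, and 609 and 4975 of all 51879 elements). DESeq2 gave 4 and 30 elements, beside 1.34% and 12.6% of all, and any change from 0 gave 39 and 46, beside 18.2% and 27.7%. Near Esrra and Thra the double-sorted replicates were unlike. Summed over elements, replicate 3 held 84.1 CPM near Esrra and 323 near Thra, against 272 and 613 in replicate 4. Rods over Nrl-/- photoreceptors alone had medians of 0.49 at Esrra and 0.43 at Thra.

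**Figure D2:**
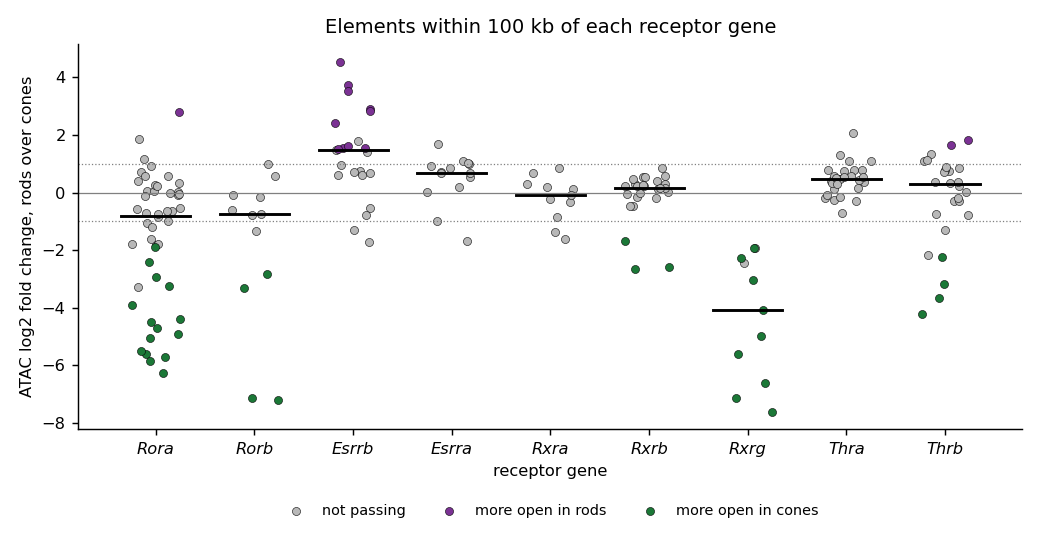
ATAC log2 fold change of rods over cones for the 198 tested elements within 100 kb of each receptor gene. Each point is an element, the black line is the median of the gene, and dotted lines mark a log2 fold change of 1 in either direction. All elements of Rxrg lie below 0, and the median of Esrrb lies at 1.47.

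Rods were also set against Nrl-/- photoreceptors alone, without the shallow green cone libraries. Here 16 of 195 elements passed as more open in rods and 39 in Nrl-/- photoreceptors, beside 6.39% and 20.9% of all 49364 elements tested. All 11 elements of Rxrg and 15 of 46 of Rora were more open in Nrl-/- photoreceptors, and 12 of 23 of Esrrb in rods. At Rora and at Esrrb, 1 element each passed in the opposite direction. Both comparisons used the same rod and Nrl-/- libraries. With the read totals of the study the counts were 18 and 27, rods had 40.00% of the calls in place of 29.1%, and the median of all elements moved by 0.53. For comparison, 4129 and 6513 of all 49364 elements passed, and rods had 38.8% of these calls in place of 23.4%. DESeq2 gave 4 and 28, beside 2.60% and 12.3% of all elements, and any change from 0 gave 50 and 57, beside 27.5% and 33.4%.

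**Figure D3:**
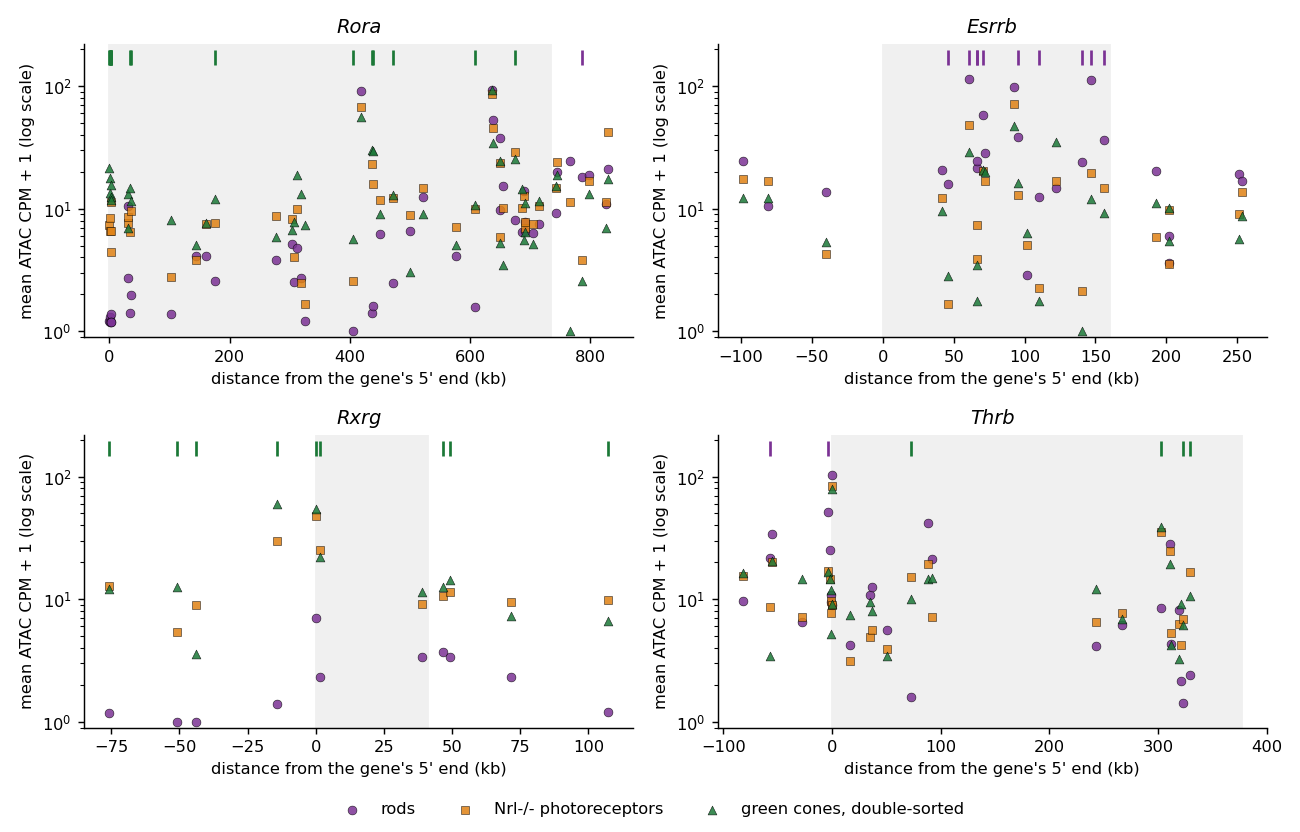
Mean ATAC CPM plus 1 (log scale) of each element against its distance from the 5' end of the gene, in kb, at Rora, Esrrb, Rxrg and Thrb, for rods, Nrl-/- photoreceptors and double-sorted green cones. Grey marks the gene, and ticks at the top mark elements more open in rods (purple) or in cones (green). Rod values are low at the elements around Rxrg, where they reach 7.90 CPM at most, and high at several elements in Esrrb, where they reach 115.

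Rxrg encodes RXR gamma, the RXR of cones. Its RNA was at 0.709, 0.835 and 1.17 CPM in rods, against 219, 228 and 215 in Nrl-/- photoreceptors (log2 fold change -7.93, SE 0.18, adjusted p = 4.12e-11, edgeR). The gene spans chr1:167598362-167639623 on the plus strand. The element near it with the lowest adjusted p lay 14.2 kb upstream of the start. It held 0.416 and 0.376 CPM in rods, 34.8 and 22.5 in Nrl-/- photoreceptors, 59.99 and 56.7 in double-sorted and 30.5 and 25.6 in single-sorted green cones. All cone libraries were far above both rod libraries, and the mean of the 4 that were tested was 109.8-fold that of rods (log2 fold change -6.60, SE 0.65, adjusted p = 0.000243, edgeR). Its sequence is given, on the plus strand of mm10, as that of the element that parted the groups most clearly near this gene. In the sequences printed here, capitals mark the hexamer AGGTCA bound by nuclear receptors, the hexamer TAATCC bound by CRX and OTX2, which are homeodomain proteins of photoreceptors, and TGCTGANTCAGCA, bound by proteins of the Maf family, to which NRL belongs, on either strand. This element has none of them.
Rxrg chr1:167584018-167584217: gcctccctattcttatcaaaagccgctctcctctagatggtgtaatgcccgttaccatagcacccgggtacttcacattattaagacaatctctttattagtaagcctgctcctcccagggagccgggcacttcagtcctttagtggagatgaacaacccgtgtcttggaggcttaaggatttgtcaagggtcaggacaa
The element 151 bp past the start, in the 5' UTR, kept some signal in rods. It held 4.16 and 7.90 CPM in rods, 47.7 and 46.1 in Nrl-/- photoreceptors and 62.3 and 45 in double-sorted green cones (log2 fold change -3.03, SE 0.34, adjusted p = 0.000777). An intron element 1.68 kb past the start held 2.08 and 0.564 CPM in rods, against 19.5 to 24.8 in the 4 cone libraries (log2 fold change -4.09, SE 0.50, adjusted p = 0.000861). Its log2 fold change was -5.22 without rod replicate 1 and -3.41 without rod replicate 2. Farther upstream, the elements 50.8 and 43.8 kb from the start held no count in rods. Against the floor of 3 counts per library, cones were at least 13.4-fold and 8.81-fold higher there.

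The other RXR genes, which are active in most tissues, did not pass the RNA test. Rxra was at 29.2, 27.4 and 25.5 CPM in rods, against 15.2, 12.8 and 14.6 in Nrl-/- photoreceptors, without overlap (log2 fold change 0.95, SE 0.14, adjusted p = 1.00). Tested for any change from 0 it had an adjusted p of 0.000144. Rxrb was at 8.45, 7.93 and 9.96 CPM in rods, against 8.60, 10.7 and 12.9 in Nrl-/- photoreceptors, and its groups overlapped (log2 fold change -0.29, SE 0.20, adjusted p = 1.00). Per kilobase of exon, RNA of the 3 RXR genes summed to 8.56 ± 0.280 CPM per kb in rods and 99.9 ± 2.31 in Nrl-/- photoreceptors (SD, n = 3). Rxra made up 58.5% ± 4.58 of that sum in rods and 2.60% ± 0.288 in Nrl-/- photoreceptors, Rxrb 37% ± 3.55 and 3.88% ± 0.801, and Rxrg 4.46% ± 1.11 and 93.5% ± 0.832. The largest share thus belonged to Rxra in every rod library and to Rxrg in every Nrl-/- library.

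**Figure D4:**
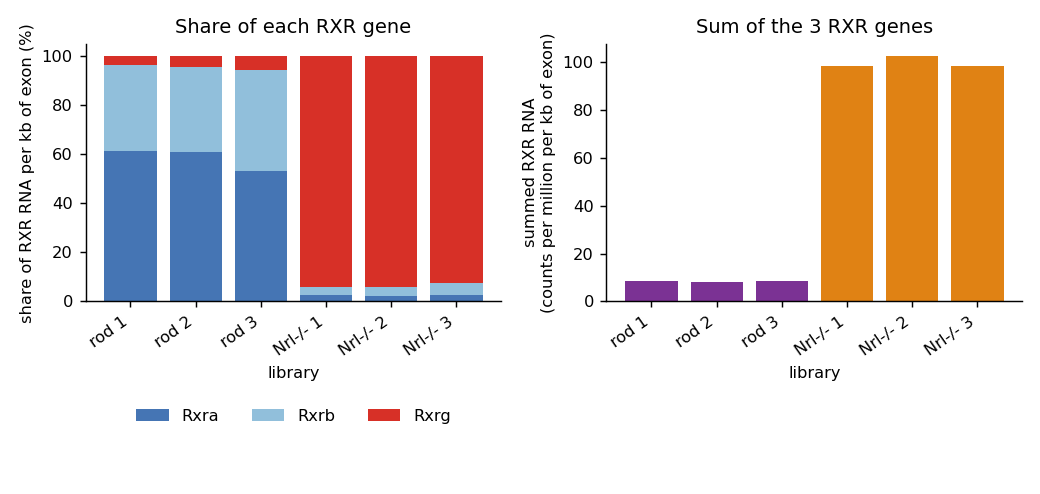
Share of Rxra, Rxrb and Rxrg in RXR RNA per kb of exon (left) and the sum of the 3 genes in CPM per kb of exon (right), in each RNA-seq library. Rxrg makes up 3.45% to 5.65% in rods and 92.6% to 94% in Nrl-/- photoreceptors, where the sum is also higher.

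Promoter elements of Rxra and Rxrb did not pass the ATAC test. That of Rxra, 115 bp upstream of the start of isoform 1, held 18.5 and 14.5 CPM in rods, within the range of 7.20 to 19.5 in the 4 cone libraries (log2 fold change 0.13, SE 0.38, adjusted p = 1.00). That of Rxrb, 49 bp upstream of its first start, held 38.5 and 33.3 CPM in rods, 34.8 and 28.6 in Nrl-/- photoreceptors and 18.7 and 18 in double-sorted green cones (log2 fold change 0.48, SE 0.30, adjusted p = 1.00).

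Esrrb encodes estrogen-related receptor beta, an orphan receptor. Its RNA was at 241, 282 and 228 CPM in rods, against 14.8, 16.9 and 11.4 in Nrl-/- photoreceptors (log2 fold change 4.12, SE 0.17, adjusted p = 4.30e-09, edgeR). The gene lies at chr12:86361117-86521628 on the plus strand. Its 10 elements more open in rods held 10.2 to 115 CPM in rods. All lay in annotated introns, among them the promoter element of isoform 1, which falls in an intron of isoform 2. Both rod libraries were above all 4 cone libraries at each of these 10. The test had picked them for higher rod values, so that this order was largely set beforehand and adds no support. Of all elements tested, picked or not, 26.7% had this order. The lowest adjusted p belonged to an element 86.3 kb past the start of isoform 1. It held 106 and 114 CPM in rods, 19.9 and 17.3 in Nrl-/- photoreceptors, 7.79 and 14.4 in double-sorted and 41.3 and 39.7 in single-sorted green cones (log2 fold change 2.84, SE 0.27, adjusted p = 0.000440). The single-sorted green cones lay between rods and the other cone libraries here, as they did at the element in Nrl, and with them in the test the log2 fold change was 1.91. The element is shown for its match to TGCTGANTCAGCA, which was noticed after the sequence had been read.
Esrrb chr12:86507801-86508000: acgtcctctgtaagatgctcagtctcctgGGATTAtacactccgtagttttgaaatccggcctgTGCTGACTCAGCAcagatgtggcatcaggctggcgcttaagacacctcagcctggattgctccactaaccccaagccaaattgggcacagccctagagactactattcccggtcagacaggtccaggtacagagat
Another element, 79.7 kb past that start, had few or no counts in the 4 cone libraries. It held 21.4 and 25 CPM in rods, 0 and 2.27 in Nrl-/- photoreceptors and 0 and 0 in double-sorted green cones (log2 fold change 4.55, SE 0.71, adjusted p = 0.00290). An element 5.71 kb past the start held 17.9 and 23.1 CPM in rods, against 1.80 to 3.32 in the 4 cone libraries (log2 fold change 2.91, SE 0.40, adjusted p = 0.00266), and the log2 fold change was 2.14 with single-sorted green cones.

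The promoter element of Esrrb isoform 1, centred 39 bp upstream of the start, held 109 and 115 CPM in rods, 44 and 49.98 in Nrl-/- photoreceptors, 23.4 and 32.4 in double-sorted and 40.8 and 40.2 in single-sorted green cones. Rods were above all cone libraries (log2 fold change 1.55, SE 0.25, adjusted p = 0.0456), and the call was lost without rod replicate 1 (adjusted p = 0.155), without rod replicate 2 (0.183) and with DESeq2 (0.291), while the log2 fold change lay between 1.36 and 1.71 with any single library left out. The start of isoform 2 had its closest element 40.3 kb upstream, with 11.6 and 13.7 CPM in rods and 1.56 to 7.20 in the 4 cone libraries (log2 fold change 1.81, SE 0.50, adjusted p = 0.103), and it passed under some alternatives, among them single-sorted green cones (0.0418). The number of Esrrb elements more open in rods was 3 with DESeq2, 4 without rod replicate 1 and 3 without rod replicate 2.

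Esrra, the paralog of Esrrb that acts on energy metabolism in many tissues, had little RNA. It was at 2.78, 2.19 and 3.34 CPM in rods, against 1.26, 1.87 and 1.76 in Nrl-/- photoreceptors (log2 fold change 0.76, SE 0.33, adjusted p = 1.00). Per kilobase of exon, Esrrb made up 97.7% ± 0.678 of the summed RNA of the pair in rods and 80.8% ± 4.65 in Nrl-/- photoreceptors. The level of Esrra is uncertain, as stated above, and the share leaves out Esrrg, the remaining gene of the subfamily. Esrrg, chosen after its values were seen, was at 72.9, 105 and 93.4 CPM in rods, against 127, 108 and 96.9 in Nrl-/- photoreceptors, and its groups overlapped. In Nrl-/- photoreceptors its CPM thus lay above those of Esrrb (14.8, 16.9 and 11.4). The Esrra promoter element held 142 and 134 CPM in rods, 93.3 and 92.7 in Nrl-/- photoreceptors and 26.5 and 72 in double-sorted green cones (log2 fold change 0.93, SE 0.34, adjusted p = 0.661), with both rod libraries above the others.

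Rorb encodes ROR beta, with isoforms that begin at separate start sites. Its RNA was at 2371, 2821 and 2207 CPM in rods, against 958, 777 and 673 in Nrl-/- photoreceptors (log2 fold change 1.62, SE 0.16, adjusted p = 0.00156, edgeR). The gene lies at chr19:18930609-19111196 on the minus strand. The promoter element of isoform 1 held 92.5 and 82.4 CPM in rods, inside the range of 60.3 to 118 in the 4 cone libraries (log2 fold change -0.086, SE 0.24, adjusted p = 1.00). The element closest to the start of isoforms 2 and 3, 1.94 kb past it, held 58.6 and 52.9 CPM in rods, 41.1 and 39.3 in Nrl-/- photoreceptors and 17.1 and 9.0 in double-sorted green cones. Rods were above the cone libraries there without passing the test (log2 fold change 0.98, SE 0.41, adjusted p = 0.601). The 4 elements that passed, all more open in cones, lay in introns between 33.1 and 52.3 kb past the start of isoform 1. The one with the lowest adjusted p held 0.832 and 1.51 CPM in rods, 13.7 and 10.00 in Nrl-/- photoreceptors and 9.35 and 16.2 in double-sorted green cones (log2 fold change -3.32, SE 0.55, adjusted p = 0.00485). It holds 2 copies of AGGTCA and is printed for them.
Rorb chr19:19064951-19065150: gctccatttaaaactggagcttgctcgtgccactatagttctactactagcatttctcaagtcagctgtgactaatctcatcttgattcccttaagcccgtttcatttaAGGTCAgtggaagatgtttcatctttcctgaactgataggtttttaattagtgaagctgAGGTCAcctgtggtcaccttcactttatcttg
The element 52.3 kb past the start held no count in rods and 2.95 to 10.1 CPM in the 4 cone libraries, at least 9.93-fold higher in cones against the floor of 3 counts per library. Rorb RNA was thus higher in rods while the elements that passed were more open in cones.

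Rora encodes ROR alpha, which also acts in the circadian clock. Its RNA was at 422, 414 and 433 CPM in rods, against 597, 505 and 484 in Nrl-/- photoreceptors, without overlap and without passing the test (log2 fold change -0.32, SE 0.12, adjusted p = 1.00). Tested for any change from 0 it had an adjusted p of 0.0341. The gene, at chr9:68653786-69388246 on the plus strand, has a start for isoforms 1 and 3 and another for isoform 2, and these differed in openness. All 6 elements within 5 kb of the start of isoforms 1 and 3 passed as more open in cones, beside 18.0% of all elements tested. This window was set after the values were seen. Rod libraries held 0 to 0.753 CPM in the 6 elements, Nrl-/- photoreceptors 2.73 to 12.3, double-sorted green cones 5.40 to 27 and single-sorted ones 2.93 to 13.2. The element 126 bp upstream of that start held 2 counts in the rod libraries together and 90 in the 4 cone libraries. This was a ratio of 49.5 after scaling (95% counting interval 13.3 to 415). The interval takes each count as independent and is too narrow if both reads of a fragment were counted. By contrast the promoter element of isoform 2 held 89.4 and 92.8 CPM in rods, 89.6 and 81.6 in Nrl-/- photoreceptors, 99.7 and 82.8 in double-sorted and 80.4 and 75.8 in single-sorted green cones (log2 fold change 0.055, SE 0.18, adjusted p = 1.00), so that its groups lay close together. Counts per gene do not tell the isoforms apart in RNA.

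Within Rora, the elements with the lowest adjusted p were neighbours in an intron, 199 and 198 kb upstream of the start of isoform 2. The first held 0.832 and 0 CPM in rods, 20.7 and 23.6 in Nrl-/- photoreceptors, 27.3 and 30.6 in double-sorted and 21.5 and 15.1 in single-sorted green cones (log2 fold change -5.85, SE 0.67, adjusted p = 0.000442). The rod libraries held 4 counts in all, and the log2 fold change was -9.20 without rod replicate 1, which leaves no rod count and so no exact value, and -4.84 without rod replicate 2, with the call kept. The other held 0.832 and 0.376 CPM in rods, against 13.7 to 30.4 in the 4 cone libraries (log2 fold change -5.04, SE 0.61, adjusted p = 0.000652, or -5.64 without rod replicate 1). The first is shown as the leading element of the gene.
Rora chr9:69090987-69091186: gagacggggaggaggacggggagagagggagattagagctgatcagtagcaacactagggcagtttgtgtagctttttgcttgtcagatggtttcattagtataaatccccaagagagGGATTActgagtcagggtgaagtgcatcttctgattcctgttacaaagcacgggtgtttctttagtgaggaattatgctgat
The number of Rora elements more open in cones was 10 without rod replicate 1 and 10 without rod replicate 2, and 13 with DESeq2. The 1 Rora element more open in rods lay beyond the gene, with Anxa2 as its nearest gene.

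Thrb encodes thyroid hormone receptor beta, whose isoform 2 begins inside the gene and is the form known from cones. Thrb RNA was at 327, 295 and 336 CPM in rods, against 626, 529.7 and 483 in Nrl-/- photoreceptors, without overlap and without passing the test (log2 fold change -0.77, SE 0.13, adjusted p = 1.00). Tested for any change from 0 it had an adjusted p of 0.000264. The gene lies at chr14:17660960-18038088 on the plus strand. The promoter element of isoform 1 was open in every library and held 106 and 97.1 CPM in rods, 89.6 and 75 in Nrl-/- photoreceptors and 90.4 and 64.8 in double-sorted green cones (log2 fold change 0.35, SE 0.19, adjusted p = 1.00). The element over the start of isoform 2 held 0.416 and 1.88 CPM in rods, 3.32 and 3.18 in Nrl-/- photoreceptors, 10.9 and 5.40 in double-sorted and 9.29 and 10.5 in single-sorted green cones. All cone libraries were above both rod libraries, as at 30.2% of all elements tested, and the difference did not pass (log2 fold change -2.18, SE 0.89, adjusted p = 0.209). The log2 fold change was -1.50 without rod replicate 1 and -3.57 without rod replicate 2. When the double-sorted green cones were replaced by the single-sorted libraries its adjusted p was 0.0836. The window used here, 20 kb, was wider than the 5 kb at Rora and was not fixed beforehand either. Of all elements tested, 18.0% passed as more open in cones and 3.96% in rods. Of the 7 elements within 20 kb of that start, 3 were more open in cones and none in rods. The most open of these in cones, 17.8 kb upstream of the start of isoform 2, held 5.82 and 9.03 CPM in rods, 35.3 and 32.9 in Nrl-/- photoreceptors, 31.9 and 43.2 in double-sorted and 27.9 and 27.4 in single-sorted green cones (log2 fold change -2.24, SE 0.32, adjusted p = 0.00461). With the read totals of the study its adjusted p was 0.101.

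Elements at the other end of Thrb had the opposite order. The element 3.30 kb upstream of the start of isoform 1 held 51.8 and 49.7 CPM in rods, against 12.9 to 19.1 in the 4 cone libraries (log2 fold change 1.67, SE 0.26, adjusted p = 0.0257), and lost its call without rod replicate 1 (adjusted p = 0.157), without rod replicate 2 (0.126) and with DESeq2 (0.199), while its log2 fold change stayed between 1.602 and 1.77 with any single library left out. The element 57.1 kb upstream held 20.2 and 21.4 CPM in rods, against 1.80 to 10.00 in the 4 cone libraries (log2 fold change 1.84, SE 0.47, adjusted p = 0.0805). It lost its call without rod replicate 1 (0.234), rod replicate 2 (0.255), double-sorted green cone replicate 4 (0.121) or Nrl-/- replicate 1 (0.127), with single-sorted green cones (0.240) and with DESeq2 (0.603), and its log2 fold change was 2.44 without Nrl-/- replicate 2. An intron element 73 kb past the start of isoform 1 was again more open in cones, with 0.832 and 0.376 CPM in rods, against 7.20 to 15 in the 4 cone libraries (log2 fold change -4.23, SE 0.63, adjusted p = 0.00209). The following sequences are given to show elements of both directions in a single gene, the first more open in rods and the others in cones.
Thrb chr14:17657563-17657762: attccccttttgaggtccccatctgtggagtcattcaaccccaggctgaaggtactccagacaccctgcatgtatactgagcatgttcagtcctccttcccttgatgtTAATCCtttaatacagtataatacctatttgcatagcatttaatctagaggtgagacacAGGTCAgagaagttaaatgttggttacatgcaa
Thrb chr14:17733814-17734013: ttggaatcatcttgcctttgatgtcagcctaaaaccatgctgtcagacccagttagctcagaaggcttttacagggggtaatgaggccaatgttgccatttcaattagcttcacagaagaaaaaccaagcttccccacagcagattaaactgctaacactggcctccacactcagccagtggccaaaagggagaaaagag
Thrb chr14:17963749-17963948: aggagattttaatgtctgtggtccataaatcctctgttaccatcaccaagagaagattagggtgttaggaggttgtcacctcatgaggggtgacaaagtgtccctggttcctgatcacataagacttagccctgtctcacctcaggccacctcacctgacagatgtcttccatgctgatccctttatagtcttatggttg

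Thra encodes thyroid hormone receptor alpha, the form found in most tissues. Its RNA was at 10.02, 10.7 and 12.6 CPM in rods, against 12, 10.1 and 9.02 in Nrl-/- photoreceptors, and its groups overlapped (log2 fold change 0.10, SE 0.18, adjusted p = 1.00). Per kilobase of exon, Thrb made up 93.3% ± 0.673 of the RNA of the pair in rods and 96.2% ± 0.0473 in Nrl-/- photoreceptors. The element at the Thra start held 34.9 and 41.6 CPM in rods, against 23.4 to 30.7 in the 4 cone libraries (log2 fold change 0.58, SE 0.25, adjusted p = 1.00), and none of the 28 elements tested near the gene passed.

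A promoter was taken to reach from 1000 bp upstream to 100 bp downstream of a start site. Of 13 promoter elements of the receptor genes tested, 1 (Esrrb isoform 1) passed as more open in rods and 1 (Rora isoforms 1 and 3) in cones. Of all 13941 promoter elements tested, 1.53% passed as more open in rods and 6.84% in cones. The Rxrg element in the 5' UTR lies outside this window.

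**Figure D5:**
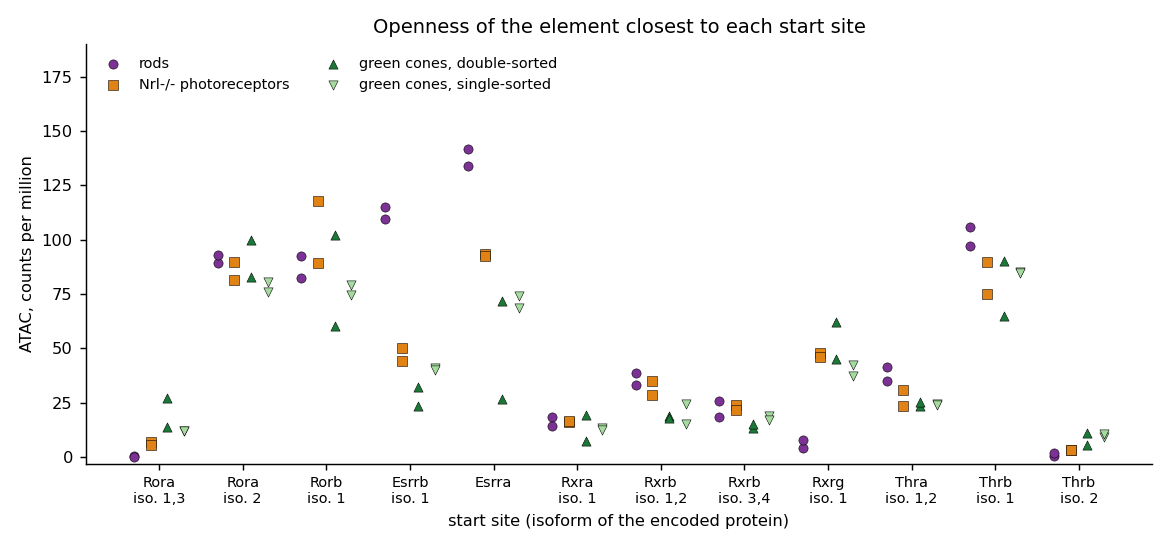
ATAC CPM in the element closest to each start site with an element within 1000 bp, by the isoform of the protein, in each of the 8 libraries. Rods lie near 0 at the start of Rora isoforms 1 and 3 and below the cone libraries at Rxrg. They also lie near 0 at Thrb isoform 2, where Nrl-/- photoreceptors are low too and the difference did not pass. Rods lie above the tested cone libraries at Esrrb, and without passing the test also at Esrra, Thra and Thrb isoform 1.

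Double-sorted green cones were compared with Nrl-/- photoreceptors as the 2 kinds of cone-like cells. None of 173 elements near the receptor genes passed in either direction by edgeR, where 0.0140% of all 42732 elements passed as more open in green cones, with 0% for the opposite direction. At an unadjusted p under 0.05, 3 passed with green cones higher and 4 with Nrl-/- photoreceptors higher. DESeq2 called none of the 173 either, beside 0.0819% and 0.00468% of all elements. Any change from 0 gave 1 and 3 elements, beside 1.85% and 0.966%. Leaving out a double-sorted library, with the lone one assumed to vary like the Nrl-/- libraries, gave 0 and 5 elements without replicate 3, and 2 and 10 without replicate 4. The counts over all elements rose as well, to 346 and 689 of all 49009 elements and to 1458 and 1925 of all 49579 elements.

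The letters AGGTCA were found on either strand in 27 of the 199 elements (13.6%) and in 14.9% of all 53204 elements, which have the same length. TAATCC was in 46 (23.1%) and in 21.1% of all. Of the 13 elements more open in rods, 1 held AGGTCA and 5 TAATCC, and of the 35 more open in cones, 8 and 11. AAGGTCA, a longer form bound by estrogen-related receptors that contains AGGTCA, was in 12 of the 199 (6.03%) and in 3.99% of all, and TAGGTCA, bound by ROR proteins, in 5 (2.51%) and 2.79%. The direct repeat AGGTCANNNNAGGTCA, bound by thyroid hormone receptors with RXR, was in none of the 199 and in 17 of all elements (0.0320%). TGCTGAC, which can overlap the Maf sequence, was in 8 (4.02%) and 3.98%. TGCTGANTCAGCA was in 2 of all elements (0.00376%), of which the Esrrb intron element is 1.

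Other genes of these pathways were taken from lists. Their counts are to be read beside those of all 12327 genes tested. Of these, 6.85% passed as higher in rods and 13.2% in Nrl-/- photoreceptors. Of 40 other nuclear receptors 23 were tested for RNA, of which 3 passed as higher in rods and 4 in Nrl-/- photoreceptors, with a median log2 fold change of -0.24 beside 0.008 over all genes tested. Nr2e3, a rod factor that represses cone genes, was at 1287, 2037 and 1879.9 CPM in rods, against 4.03, 4.10 and 2.47 in Nrl-/- photoreceptors (log2 fold change 8.94, SE 0.28, adjusted p = 2.15e-10, edgeR). Nr4a1, an immediate early gene, was at 4.66 to 5.64 CPM in rods, against 86.4 to 115 in Nrl-/- photoreceptors (log2 fold change -4.33, SE 0.16, adjusted p = 1.89e-09), and Nr6a1, an orphan receptor, at 14.2 to 20.1, against 115 to 159.7 (log2 fold change -2.96, SE 0.17, adjusted p = 4.13e-07). Vdr, the vitamin D receptor, was at 0 to 0.0522 CPM in rods, against 0.820 to 2.29 in Nrl-/- photoreceptors.

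The shares of all genes tested, 6.85% higher in rods and 13.2% in Nrl-/- photoreceptors, apply here too. Of 11 genes of thyroid hormone transport and conversion 5 were tested, with a median log2 fold change of -1.17. None passed as higher in rods and 1 in Nrl-/- photoreceptors. This was Slc7a5, an amino acid transporter, at 2.56 to 2.73 CPM in rods, against 8.20 to 13.5 (log2 fold change -1.92, SE 0.25, adjusted p = 0.00258). The deiodinase genes Dio1 and Dio3 had no count in any library. Of 13 genes of retinoic acid synthesis, binding and breakdown 6 were tested, 1 passed as higher in rods and 3 in Nrl-/- photoreceptors, with a median of -1.56. Dhrs3, a retinal reductase, was at 1391, 1899 and 1785 CPM in rods, against 220.2, 263 and 215 in Nrl-/- photoreceptors (log2 fold change 2.86, SE 0.16, adjusted p = 2.16e-07). Rdh10, a retinol dehydrogenase, was at 4.59 to 5.23 CPM in rods, against 15.6 to 22.3 (log2 fold change -1.997, SE 0.19, adjusted p = 0.000214), and Aldh1a1, a retinal dehydrogenase, at 0.261 to 0.612, against 1.46 to 2.58 (log2 fold change -2.29, SE 0.49, adjusted p = 0.0185). Rbp4, a retinol carrier, was at 0 to 0.0522 CPM in rods, against 5.57 to 8.16. Aldh1a2, Aldh1a3 and Cyp26c1 had no count in any library.

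Of 16 coregulators, all tested, 2 passed as higher in rods and 1 in Nrl-/- photoreceptors, with a median of 0.58. Beside this and the target lists that follow, 6.85% and 13.2% of all genes tested passed in these directions. Ppargc1b, a coactivator of estrogen-related receptors, was at 163, 139 and 153 CPM in rods, against 19.2, 12.6 and 15.2 in Nrl-/- photoreceptors (log2 fold change 3.27, SE 0.16, adjusted p = 4.97e-08), and Ncoa2, a coactivator, had the smaller change of the pair (log2 fold change 1.33, SE 0.16, adjusted p = 0.0368). Hr, a corepressor of thyroid hormone receptors and itself a target of the hormone, was at 2.38, 2.92 and 2.34 CPM in rods, against 54.6, 60.3 and 61.1 in Nrl-/- photoreceptors (log2 fold change -4.52, SE 0.16, adjusted p = 1.38e-09). Of 4 tested targets of thyroid hormone receptors, 3 passed, Hr and the cone opsin genes Opn1sw (log2 fold change -7.35, SE 0.20, adjusted p = 8.59e-11) and Opn1mw (log2 fold change -6.55, SE 0.18, adjusted p = 9.01e-11), all higher in Nrl-/- photoreceptors, with a median of -5.54 over the list. The opsin genes are also among the cone markers that checked the labels. Klf9, the other target tested and a transcription factor gene, was at 115 to 137 CPM in rods, against 49.5 to 61.3 in Nrl-/- photoreceptors (log2 fold change 1.16, SE 0.12, adjusted p = 0.148, and adjusted p = 8.05e-06 for any change from 0). Of 7 tested targets of ROR proteins, 1 passed, again Opn1sw, with a median of -1.03. Of 7 tested targets of estrogen-related receptors, 1 passed, Idh3a of the tricarboxylic acid cycle, which was higher in Nrl-/- photoreceptors (log2 fold change -1.61, SE 0.15, adjusted p = 0.00136), with a median of -0.42.

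The genes most like the receptors that passed, by the Pearson correlation of log2 CPM over the 6 RNA-seq libraries, included Diras2 and Ece1 for Rxrg (lowest r = 0.9999), and were Katna1, Stk35 and Ccdc180 for Esrrb (lowest r = 0.9993) and Arhgap39, Zscan12 and 1700030J22Rik for Rorb (lowest r = 0.9975). The libraries form 2 groups, which any gene with a large difference follows, and 690 genes for Rxrg, 325 for Esrrb and 148 for Rorb had r above 0.99.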

How the data were processed

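Rods, green cones and Nrl-/- photoreceptors were profiled by ATAC-seq, and rods and Nrl-/- photoreceptors by RNA-seq. The count tables deposited by the authors hold raw counts per gene and, for ATAC-seq, raw counts of nucleosome-free reads per 200 bp element. Tools named by the submitters are Bowtie2 2.2.3, Picard 1.121, SAMtools 1.3 and MACS2 2.1.0 for ATAC-seq on mm10, and STAR 2.4.2a with HTSeq 0.6.1p1 for RNA-seq. Reads without a gene, 41.3% to 49.2% per library, were left out, and the deposited peak lists were not used.

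Counts were scaled by TMM and filtered by filterByExpr in edgeR 4.0.16 (R 4.3.3). Its quasi-likelihood fit with glmTreat asked for a change beyond a log2 fold change of 1, with p-values adjusted over all genes (threshold 0.05) or elements (0.1). Fold changes are those of rods over the other group, or of green cones over Nrl-/- photoreceptors. A group with no count was set at a floor of 3 counts per library, and bounds and intervals cover counting error only. They take each count as independent. If both reads of a fragment were counted, the intervals are too narrow and the bounds too high. The study calls the replicates biological, but the labels name no separate mice, litters or days, so that p-values measure the spread between these samples. Its sample table gives the same number of sorted cells for rod RNA-seq replicates 2 and 3, which may share a sort. Annotation and sequence came from RefSeq GRCm38.p6, and a promoter reaches from 1000 bp upstream to 100 bp downstream of a start site.

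The receptor genes, gene lists and markers were chosen with earlier results of these data known. Named were all receptor genes, up to 4 genes per list with the largest change among those that passed, the 3 genes most correlated with each receptor gene that passed, and for each receptor gene its promoter element and up to 2 elements per direction with the lowest adjusted p. Other elements were named after their values were seen, and 1 gene that the rule names is not reported here. Alternatives were RLE size factors, DESeq2 1.42.0, no filter, a test for any change from 0, the read totals of the study as library sizes, single-sorted green cones, elements inside or nearest to a gene, a replicate block and each library left out.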

Additional observations from a re-analysis of the deposited data

Results flagged for a closer look

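Among the 4 cone libraries, the element in the 5' UTR of Rxrg stood at 62.3 CPM in double-sorted green cone replicate 3, while the others lay between 45 and 47.7. Of 29 elements checked this was the 1 whose gap passed the 95% limit of Dixon for 4 values, and chance sets about 1 group in 20 apart.

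When single-sorted green cones were set against Nrl-/- photoreceptors, 1 and 1 of 194 elements near the receptor genes passed as more open in the first and in the other group, beside 924 and 520 of all 50605 elements. An intron element of Rxra (chr2:27746038-27746237) held 18.2 and 20.4 CPM in Nrl-/- photoreceptors, 3.91 and 2.74 in single-sorted and 0 and 1.80 in double-sorted green cones, and 3.53 and 5.08 in rods, so that the Nrl-/- photoreceptors stood above all other groups. The log2 fold change of single-sorted green cones over Nrl-/- photoreceptors was -2.48 (adjusted p = 0.00678, edgeR), whereas the double-sorted libraries held 2 counts in all and did not pass (adjusted p = 0.136), with a log2 fold change that moved from -3.39 without double-sorted replicate 3 to -8.72 without replicate 4, which leaves no green cone count and so no exact value. An intron element of Rora (chr9:68972229-68972428) had the opposite order, with 2.49 and 0.454 CPM in Nrl-/- photoreceptors, 11.5 and 10.5 in single-sorted and 12.5 and 11.7 in double-sorted green cones, and 0.832 and 2.63 in rods. Its log2 fold change was 3.12 (adjusted p = 0.0131, edgeR) for single-sorted and 3.20 (SE 0.80, adjusted p = 0.277) for double-sorted green cones, and the latter spanned 2.23 to 4.56 with single libraries left out. Cell lineage, genotype and transgene differ together between green cones and Nrl-/- photoreceptors and cannot be told apart. The study also reports that green cones had to be sorted again for the best purity, which the single-sorted libraries were not.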

How the results depend on the processing

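Rorb, Esrrb and Rxrg kept their RNA calls under all alternatives run, and any change from 0 gave 3 receptor genes in each direction. For ATAC-seq, pairs of counts here give elements more open in the first and in the other group. Rods against cones gave 4 and 30 with DESeq2, 39 and 46 for any change from 0, 20 and 26 with the read totals of the study, 11 and 39 with single-sorted green cones and 12 and 30 for elements inside or nearest to a gene, and ranged from 3 to 14 and from 25 to 37 with single libraries left out. Rods against Nrl-/- photoreceptors gave 4 and 28 with DESeq2, 50 and 57 for any change from 0 and 18 and 27 with the read totals. Green cones against Nrl-/- photoreceptors gave 1 and 3 for any change from 0 and 1 and 1 with single-sorted libraries, and ranged from 0 to 2 and from 0 to 10 with single libraries left out. The cause was not tested. Among the elements whose log2 fold change was followed individually through the alternatives, signs changed at 5, none of which passed. Signs of the other elements were not followed. With the read totals the log2 fold change was 0.30 for the Rorb promoter and 0.10 for an Rxra intron element 19.6 kb past the start of isoform 2. With single libraries left out it spanned -0.24 to 0.037 and -0.80 to 0.043 for these, -0.064 to 0.31 for the Rxra promoter, -0.013 to 0.11 for the Rora isoform 2 promoter and -0.024 to 0.47 for a coding exon element of Rxrb. Depth limits the double-sorted green cones most, where 3 counts are 2.34 and 2.70 CPM.

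Replicate numbers are not stated to pair the libraries, and a check could not settle whether they do. Deviations from the group means of same-numbered rod and Nrl-/- libraries correlated at 0.206, 0.107 and 0.004 in RNA-seq. There, not every library correlated best with its own number. In ATAC-seq the value was 0.032, and with 2 libraries per group the other pairings can only mirror it. With the replicate block, 2 receptor genes passed as higher in rods and 1 in the other direction (875 and 1641 of all genes), and 16 and 38 elements passed for rods against Nrl-/- photoreceptors. Double-sorted green cones share no number with the other groups, so that their comparisons had no block.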
